A study of Sus scrofa with 8 samples.

Results

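The genes described here are 40 genes of the response to low oxygen and of glycolysis, chosen by name as a fixed list and read out in cells of condylar cartilage from the temporomandibular (jaw) joint of pigs. Their 40 names are the sensors and transcription factors of oxygen supply, their target genes outside glycolysis, and the transporters, enzymes and regulators that turn glucose into lactate. A row of the deposited table was found for 39 of the 40, against 18898 genes in the whole table, and SLC2A1 is not analysed here. All 39 passed the filter on low counts, as 40 gene models, because LDHB has 2, and 16020 genes were tested in all.

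The osteoarthritis group held 4 samples labelled WT in which the articular disc had been perforated by a biopsy punch at its posterior and lateral side, with the disc left attached. The control group held 4 samples labelled WT and Control. The labels put the same surgical text on control samples, do not say whether control joints were opened, give no ages or times, and call the samples biological replicates without naming animals, so the p-values here reflect sample-to-sample spread, which may be technical. Ribosomal RNA was depleted and the libraries keep strand, per the labels' protocols.

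In cells with enough oxygen, prolyl hydroxylases (the EGLN genes) mark the alpha subunits of hypoxia-inducible factor (HIF) for destruction by the VHL ubiquitin ligase. When oxygen falls, the alpha subunits persist and switch on genes for blood vessel growth, acid handling, mitochondrial removal and glycolysis. Cartilage has no blood vessels, and its chondrocytes live at low oxygen and make most of their ATP by glycolysis that ends in lactate. HIF protein is controlled mainly by its stability, so transcript levels of HIF1A and EPAS1 do not measure HIF activity.

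Total estimated counts ran from 11354200 to 25412939 in osteoarthritis libraries and from 13028760 to 19710638 in control libraries. A single short gene, a signal recognition particle RNA, took 17.6% to 22.8% of all TPM (a length-corrected abundance) in osteoarthritis libraries and 34.7% to 45.0% in control libraries, so levels are given as CPM (counts scaled to library size and TMM factor), and TPM was kept for shares within gene families. Controls 1 and 3 were the pair of control libraries that differed least. Their median chi-square per gene was 3.60 times that of counting noise, against 17.5 to 76.7 times for the other control pairs. These values scale by total counts without TMM factors, so differences in scaling and depth are part of them. Pairs with control 2, whose TMM factor was 0.424, ran from 50.1 to 76.7. A fit against controls 1 and 3 alone may understate the spread among controls. Chondrocyte markers (9 genes, all detected, led by COL2A1 and ACAN) summed to 18325 to 130461 CPM in osteoarthritis and 6819 to 15639 CPM in control libraries. COL2A1 made up most of that sum. Of the 9, 0 passed by edgeR, and 5 had groups apart and higher in osteoarthritis, against 5.69% of all genes tested. Basal epithelial markers (7 of 8 in the table) summed to 1.30 to 2.45 CPM in osteoarthritis and 96.1 to 399 CPM in control libraries. All 7 passed lower by edgeR, against 0.393% of all genes tested. All 7 also had groups apart and lower in osteoarthritis, against 5.52% of all genes tested. The marker lists were chosen with earlier results of these data known. Smooth muscle and pericyte markers (8 genes, all detected, led by PDGFRB) summed to 374 to 505 CPM in osteoarthritis and 599 to 739 CPM in control libraries. These shifts move with the group. Osteoblast markers (8 genes, all detected, mostly COL1A1) summed to 84112 to 137393 CPM in osteoarthritis and 96140 to 161713 CPM in controls, with overlap. IBSP was at 1441 to 2816 CPM in osteoarthritis, against 14.6, 1041, 14.7 and 778 CPM in control replicates 1 to 4. ALPL, DMP1 and PHEX, named after their values were seen, were also lowest in controls 1 and 3, while SP7 and RUNX2 were highest there. IBSP and ALPL had groups apart and higher in osteoarthritis, 2 of the 8, against 5.69% of all genes tested. Of the 8, 0 passed by edgeR. ALPL was at 447 to 980 CPM in osteoarthritis, against 20.9, 205, 20.9 and 279 CPM in control replicates 1 to 4. The part of these lists in the results below was not tested. In bulk samples, fewer cells of a type and less RNA per cell cannot be told apart.

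Of the 40 models, 1 rose and 0 fell in osteoarthritis at an edgeR adjusted p under 0.05 over all genes tested. The background was 0.225% of all genes higher and 0.393% lower, or 36 and 63 genes (0.618% in either direction). Under library-size scaling alone these were 186 and 28 genes. With p unadjusted and under 0.05, 5 of the 40 lay higher and 2 lower, where 7.52% of all genes lay higher and 7.65% lower. DESeq2 called 3 of the 40 higher and 0 lower (background 2.50% and 2.99%), limma-voom 1 and 0 (background 0.243% and 0.499%), and limma-voom with sample weights 4 and 3 (background 12.2% and 8.40%). The 17 genes of oxygen sensing and of HIF targets outside glycolysis had a median log2 fold change of 0.32, with 14 above 0. For the 11 HIF targets the median was 0.60. It was 1.52 against controls 2 and 4 alone and 0.26 against controls 1 and 3 alone. For the 6 oxygen sensing genes it was 0.32, and 0.40 and 0.33 in these fits. The 23 models of glucose entry, glycolysis and lactate had a median of -0.02, with 11 above 0. Over all genes tested the median was 0.0049 and 50.4% were above 0. Under library-size scaling alone that median was 0.65, so single values under that scaling are to be read against 0.65. Whether the 17 and the 23 differ from each other was not tested.

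**Figure D1:**
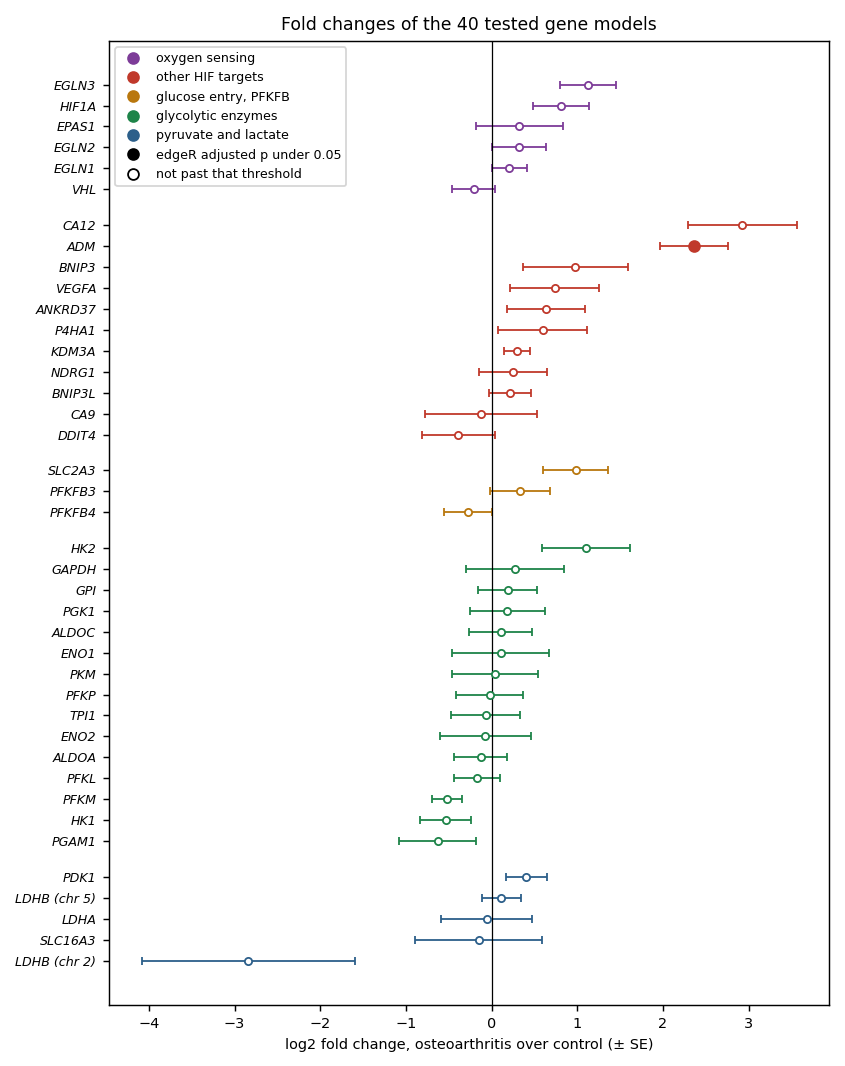
Log2 fold change (osteoarthritis over control) ± SE of the 40 tested gene models, grouped by role and ordered within each role, from edgeR on 4 osteoarthritis and 4 control libraries. ADM is the single filled point, at 2.36, while CA12 lies further right at 2.93 with a wider error, and most glycolytic enzymes straddle 0.

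ADM was the member that rose. It encodes adrenomedullin, a secreted vasodilator peptide and a classical HIF target (ENSSSCG00000013408, chromosome 2, 49229223 to 49231521, Sscrofa11.1 by RefSeq). ADM was at 27.0, 15.5, 9.58 and 12.2 CPM in osteoarthritis replicates 1 to 4, against 2.83, 5.20, 2.20 and 2.50 CPM in control replicates 1 to 4. Every osteoarthritis library was above every control. The mean was 16.1 ± 7.68 CPM in osteoarthritis and 3.18 ± 1.37 CPM in controls (SD, n = 4 each), a 5.14-fold difference (log2 2.36 ± 0.40, edgeR adjusted p = 0.044). The call lay near the threshold and was easily lost. With 1 library left out it held without control 2 or osteoarthritis 3 (edgeR adjusted p = 0.0469 and 0.0414), and was lost in the other 6 fits, with edgeR adjusted p from 0.0653 to 0.126 and a log2 fold change from 1.99 to 2.47. It was also lost with the stricter count filter (edgeR adjusted p = 0.0539), with controls 1 and 3 summed (0.119) or left out (0.0912), and without osteoarthritis 3 and control 4 (0.0598). Over these fits the log2 fold change was 2.15 to 2.45.

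CA12 had a larger difference and missed the threshold. It encodes a membrane carbonic anhydrase that hydrates carbon dioxide outside the cell (ENSSSCG00000004565, chromosome 1, 108649277 to 108710658). CA12 was at 193, 93.4, 35.3 and 87.1 CPM in osteoarthritis replicates 1 to 4, against 5.27, 20.6, 6.60 and 21.4 CPM in control replicates 1 to 4. The groups did not overlap, and osteoarthritis 3 was the nearest to the controls. The fold change was 7.60 (log2 2.93 ± 0.63, edgeR adjusted p = 0.0859), with a DESeq2 adjusted p of 0.000102. Controls 1 and 3 were well below controls 2 and 4. The log2 fold change was 4.07 against controls 1 and 3 alone (edgeR adjusted p = 0.0187) and 2.32 against controls 2 and 4 alone (edgeR adjusted p = 0.111). The fit against controls 1 and 3 alone passed 1241 genes, against 99 with all controls. RefSeq places another gene, APH1B, across CA12. The table gives it 810 counts over all libraries, against 9408 for CA12.

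CA9, the other membrane carbonic anhydrase and a gene widely used as a hypoxia marker, did not pass the test. CA9 was at 23.7, 23.8, 6.0 and 13.6 CPM in osteoarthritis replicates 1 to 4, against 30.3, 7.56, 30.3 and 4.66 CPM in control replicates 1 to 4. The groups overlapped fully (log2 -0.13 ± 0.65, edgeR adjusted p = 0.95). Its direction turned with the choice of controls, at 1.52 against controls 2 and 4 alone. Under library-size scaling alone it was at 0.32, below the median of all genes (0.65).

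Among the oxygen sensors, EGLN3 was the 1 of 6 genes whose groups did not overlap. EGLN3 is the prolyl hydroxylase that HIF itself induces most strongly (ENSSSCG00000001963, chromosome 7, 65805513 to 65833536). It was at 4.49, 6.60, 3.72 and 6.81 CPM in osteoarthritis replicates 1 to 4, against 2.75, 2.05, 3.43 and 1.67 CPM in control replicates 1 to 4. The lowest osteoarthritis library, at 3.72 CPM, was close to the highest control, at 3.43 CPM. The fold change was 2.18 (log2 1.12 ± 0.32, edgeR adjusted p = 0.158; DESeq2 adjusted p = 0.0474). EGLN1, the main oxygen sensor of most cells, averaged 45.6 ± 6.23 CPM in osteoarthritis and 39.7 ± 9.27 CPM in controls (SD, n = 4 each; log2 0.21 ± 0.21). EGLN2, a further prolyl hydroxylase, was at 0.32 ± 0.32 and VHL, the substrate receptor of the ligase, at -0.21 ± 0.25 on the log2 fold change scale, with edgeR adjusted p of 0.681 and 0.736. VHL was above 0, at 0.44, under library-size scaling alone, below the median of all genes (0.65). RefSeq places MIA and RAB4B across EGLN2, so reads of these genes may be split between them.

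EGLN3 was also set against the 3 prolyl hydroxylases summed, per length, and its share did not pass the test. The share was 6.75%, 11.8%, 7.68% and 12.7% in osteoarthritis replicates 1 to 4, against 6.47%, 3.03%, 7.56% and 4.38% in control replicates 1 to 4. The means were 9.73% ± 2.94 and 5.36% ± 2.04 (SD, n = 4 each; exact two-sided permutation p = 0.0571, 0.152 adjusted over 8 shares). EGLN1 remained the most abundant of the 3 per length, at 14.9 ± 2.31 CPM per kilobase in osteoarthritis and 13.9 ± 4.43 in controls.

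HIF1A, which encodes the widely expressed HIF alpha subunit, was at 246, 254, 194 and 336 CPM in osteoarthritis replicates 1 to 4, against 192, 121, 195 and 79.6 CPM in control replicates 1 to 4. Osteoarthritis 3 lay just below control 3, and the other osteoarthritis libraries were above every control (log2 0.81 ± 0.33, edgeR adjusted p = 0.288). EPAS1, which encodes the alpha subunit with a role in hypertrophic chondrocytes and endothelium, was at 248, 288, 216 and 162 CPM in osteoarthritis, against 71.5, 286, 70.9 and 302 CPM in controls. Every osteoarthritis library was above controls 1 and 3, and all but osteoarthritis 2, which was just above control 2, were below controls 2 and 4 (log2 0.32 ± 0.51, edgeR adjusted p = 0.805). Against controls 1 and 3 alone EPAS1 was at 1.65 (edgeR adjusted p = 0.0195), and against controls 2 and 4 alone at -0.32. The fit against controls 1 and 3 alone passed 1241 genes, against 99 with all controls. As a share of both subunits per length, EPAS1 took 50.7%, 52.6%, 53.5% and 32.9% in osteoarthritis, against 28.0%, 70.8%, 28.0% and 79.0% in controls (exact two-sided permutation p = 0.83, 0.886 adjusted over 8 shares). Endothelial markers (all 8 detected) summed to 270.5 to 377 CPM in osteoarthritis, against 163, 361, 161 and 289 CPM in control replicates 1 to 4, so they too were lowest in controls 1 and 3. Their part in the EPAS1 level was not tested.

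**Figure D2:**
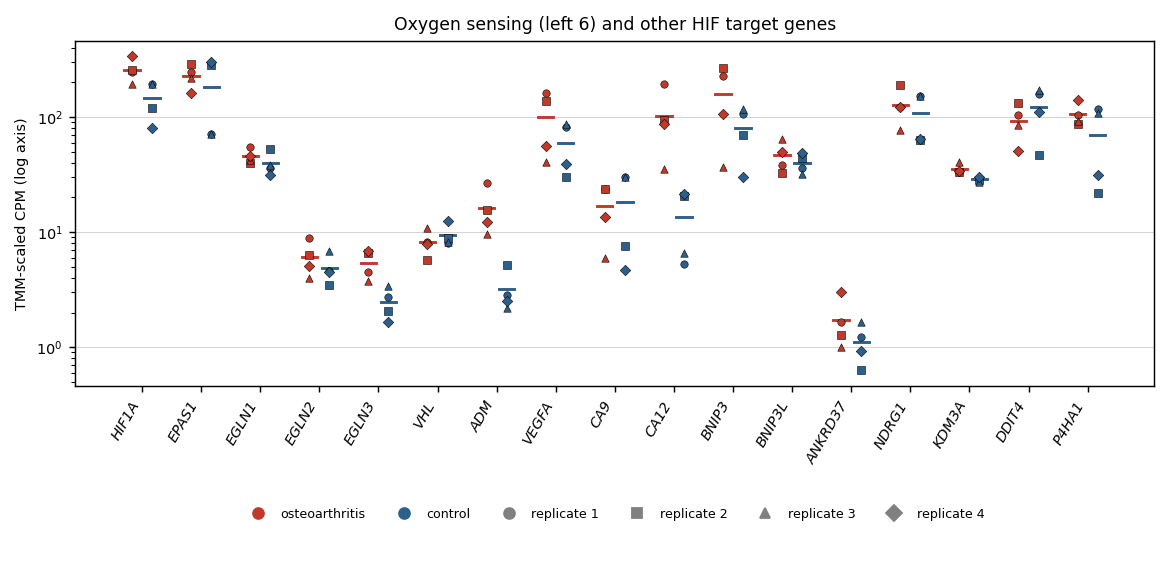
TMM-scaled CPM (log axis) of the 6 oxygen sensing genes and 11 HIF targets outside glycolysis in each library, with osteoarthritis left of control for each gene, marker shape for the replicate and a bar for the group mean. ADM, CA12, EGLN3 and KDM3A are the genes whose groups do not overlap, and EPAS1 shows controls 1 and 3 at 71.5 and 70.9 CPM and controls 2 and 4 at 286 and 302 CPM.

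Of the 11 HIF targets outside glycolysis, 9 had a fold change above 0, and in 3 (ADM, CA12 and KDM3A) every osteoarthritis library was above every control. Together with EGLN3, the groups were apart and higher in osteoarthritis in 4 of the 40 models, against 5.69% of all genes tested. KDM3A, a histone demethylase, was the tightest, at 33.5, 33.2, 40.7 and 33.8 CPM in osteoarthritis replicates 1 to 4, against 29.0, 28.3, 27.1 and 30.4 CPM in control replicates 1 to 4. The difference was small (log2 0.30 ± 0.15, edgeR adjusted p = 0.401). With the deposited effective lengths as offsets it was 0.54 ± 0.18 (edgeR adjusted p = 0.217).

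VEGFA and BNIP3 were spread widely among the osteoarthritis libraries. VEGFA, the main growth factor of blood vessels, was at 163, 138, 40.6 and 56.2 CPM in osteoarthritis replicates 1 to 4, against 82.6, 30.1, 86.4 and 39.5 CPM in control replicates 1 to 4 (log2 0.73 ± 0.51, edgeR adjusted p = 0.538). BNIP3, which marks mitochondria for removal, was at 228, 265, 36.4 and 106 CPM in osteoarthritis, against 106, 69.9, 116 and 30.2 CPM in controls (log2 0.98 ± 0.61, edgeR adjusted p = 0.485). For both genes osteoarthritis 1 and 2 were above every control, and osteoarthritis 3 was lower than controls 1 and 3. BNIP3L, its relative with a similar role, ran the other way within the osteoarthritis group, with 38.2, 32.7, 64.4 and 50.1 CPM in osteoarthritis, against 35.8, 43.8, 31.8 and 48.7 CPM in controls (log2 0.21 ± 0.25, edgeR adjusted p = 0.73).

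P4HA1, the collagen prolyl hydroxylase subunit that stabilises the collagen triple helix, was at 104, 87.1, 92.2 and 139.6 CPM in osteoarthritis replicates 1 to 4, against 118, 21.7, 109 and 31.2 CPM in control replicates 1 to 4. The osteoarthritis libraries overlapped controls 1 and 3 and were all above controls 2 and 4 (log2 0.60 ± 0.52, edgeR adjusted p = 0.627). Against controls 2 and 4 alone it was at 2.03 (edgeR adjusted p = 0.044), and against controls 1 and 3 alone at -0.13. The fit against controls 2 and 4 alone passed 21 genes higher and 55 lower, and P4HA1 was the 1 member among them. NDRG1, a stress-induced gene, and DDIT4, an inhibitor of mTOR signalling, overlapped between groups at 0.25 ± 0.39 and -0.39 ± 0.42 on the log2 fold change scale, with edgeR adjusted p of 0.804 and 0.708. DDIT4 was just above 0, at 0.06, under library-size scaling alone, where the median of all genes was 0.65. ANKRD37, a small ankyrin-repeat gene, was low in both groups and is overlapped by UFSP2 in RefSeq, at 1.74 ± 0.895 CPM in osteoarthritis and 1.11 ± 0.444 CPM in controls (SD, n = 4 each).

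At the entry to glycolysis, SLC2A3, a glucose transporter of high affinity, was at 39.4, 90.4, 143 and 59.0 CPM in osteoarthritis replicates 1 to 4, against 46.0, 29.9, 46.7 and 45.3 CPM in control replicates 1 to 4. Osteoarthritis 1 lay within the controls and the other osteoarthritis libraries above them (log2 0.98 ± 0.37, edgeR adjusted p = 0.266). Macrophage and myeloid markers (all 8 detected, led by CSF1R) summed to 226, 207, 698 and 329 CPM in osteoarthritis, against 26.6, 625, 30.7 and 712 CPM in controls. Osteoarthritis 3 was the highest of its group for both, while controls 2 and 4 were high in those markers and not in SLC2A3. The part of such cells in the SLC2A3 level was not tested. PFKFB3 and PFKFB4, enzymes that make the allosteric activator of phosphofructokinase, were at 0.33 ± 0.35 and -0.28 ± 0.28, with edgeR adjusted p of 0.699 and 0.678. PFKFB4 was at 0.25 under library-size scaling alone.

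No glycolytic enzyme passed the test, and the directions were mixed. Of 15 tested, 0 rose and 0 fell at an edgeR adjusted p under 0.05. With p unadjusted, 0 lay higher and 1 lower under 0.05 (background 7.52% and 7.65%). Of the 15, 7 were above 0 and 8 below, with a median of -0.02. DESeq2 and limma-voom called 0 of the 15, and limma-voom with sample weights called HK1 and PFKM lower (adjusted p = 0.0261 and 0.0252). With sample weights 8.40% of all genes were called lower. The median was 0.52 under library-size scaling alone, where the median of all genes was 0.65. It was 0.66 against controls 2 and 4 alone and -0.46 against controls 1 and 3 alone, so its sign depended on which controls were used.

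**Figure D3:**
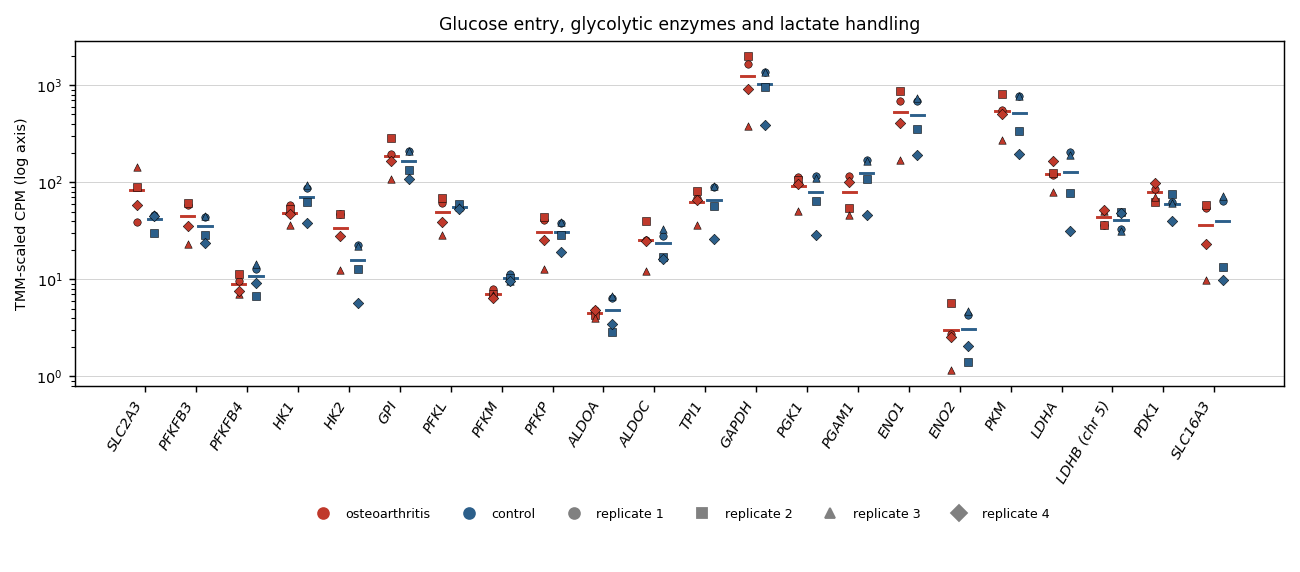
TMM-scaled CPM (log axis) of glucose entry genes, glycolytic enzymes and lactate genes in each library, with osteoarthritis left of control, marker shape for the replicate and a bar for the group mean; the LDHB model on chromosome 2 is left out. Within most enzymes osteoarthritis 3 and control 4 are the lowest libraries of their groups, and PFKM alone shows groups apart, with 6.49 to 7.93 CPM in osteoarthritis and 9.59 to 11.5 CPM in controls.

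At the first step, neither hexokinase passed the test. HK2, the inducible hexokinase of growing and hypoxic cells, was at 47.1, 47.2, 12.5 and 28.2 CPM in osteoarthritis replicates 1 to 4, against 22.4, 12.9, 21.9 and 5.69 CPM in control replicates 1 to 4 (log2 1.1 ± 0.51, edgeR adjusted p = 0.36). HK1, the constitutive hexokinase, was at 58.5, 52.5, 36.3 and 46.8 CPM in osteoarthritis, against 87.0, 62.0, 94.1 and 37.9 CPM in controls (log2 -0.53 ± 0.30, edgeR adjusted p = 0.432). HK1 was at 0.06 under library-size scaling alone, where the median of all genes was 0.65.

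HK2 as a share of both hexokinases, per length, was 36.3%, 41.3%, 19.7% and 28.8% in osteoarthritis replicates 1 to 4, against 16.0%, 12.0%, 14.9% and 10.1% in control replicates 1 to 4. Every osteoarthritis library was above every control, and the share does not depend on the scaling between libraries. The means were 31.5% ± 9.39 and 13.2% ± 2.67 (SD, n = 4 each). The exact two-sided permutation p was 0.0286, the smallest that 4 against 4 samples allow, and 0.152 adjusted over 8 shares. HK1 remained the more abundant in all 8 libraries.

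Phosphofructokinase, the committed step, has a liver (PFKL), a muscle (PFKM) and a platelet (PFKP) form. PFKM was at 7.93, 7.11, 6.95 and 6.49 CPM in osteoarthritis replicates 1 to 4, against 11.5, 10.2, 9.59 and 9.61 CPM in control replicates 1 to 4. Every osteoarthritis library was below every control, the 1 of 40 models with that pattern, against 5.52% of all genes tested. The difference was -0.52 ± 0.17 on the log2 scale (edgeR adjusted p = 0.207) and -0.80 ± 0.18 with effective lengths as offsets (edgeR adjusted p = 0.0887). It was 0.10 under library-size scaling alone, where the median of all genes was 0.65. RefSeq places SENP1 across the edge of PFKM. Skeletal muscle markers (11 of 12 in the table, led by PYGM), a tissue rich in PFKM, summed to 122 to 158 CPM in osteoarthritis and 144 to 164 CPM in controls, with overlap. PYGM, a glycogen phosphorylase, made up most of that sum, at 109 to 134 CPM in osteoarthritis and 116 to 147 CPM in controls. Of the 9 muscle markers tested, 8 were below 0, as PFKM was, with a median log2 fold change of -0.34 and 0 passing by edgeR. With p unadjusted, 1 lay lower and 0 higher under 0.05 (background 7.65% and 7.52%). The part of muscle in the PFKM level was not tested.

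PFKL was at 28.9 to 68.1 CPM in osteoarthritis, against 52.9 to 60.3 CPM in controls, where it was the steadiest of the 15 enzymes (log2 -0.17 ± 0.27). PFKP was at -0.02 ± 0.39. Signs of both turned in some settings, PFKL to 0.41 and PFKP to 0.52 under library-size scaling alone, both below the median of all genes (0.65). Of the 3 forms, PFKM took 9.77%, 10.4%, 19.7% and 15% of the transcripts per length in osteoarthritis, against 20.2%, 20.1%, 18.4% and 21.3% in controls (exact two-sided permutation p = 0.0571, 0.152 adjusted over 8 shares). Osteoarthritis 3 lay among the controls. PFKP took 29.3% ± 4.99 in osteoarthritis and 28.4% ± 5.90 in controls (SD, n = 4 each; exact two-sided permutation p = 0.83).

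**Figure D4:**
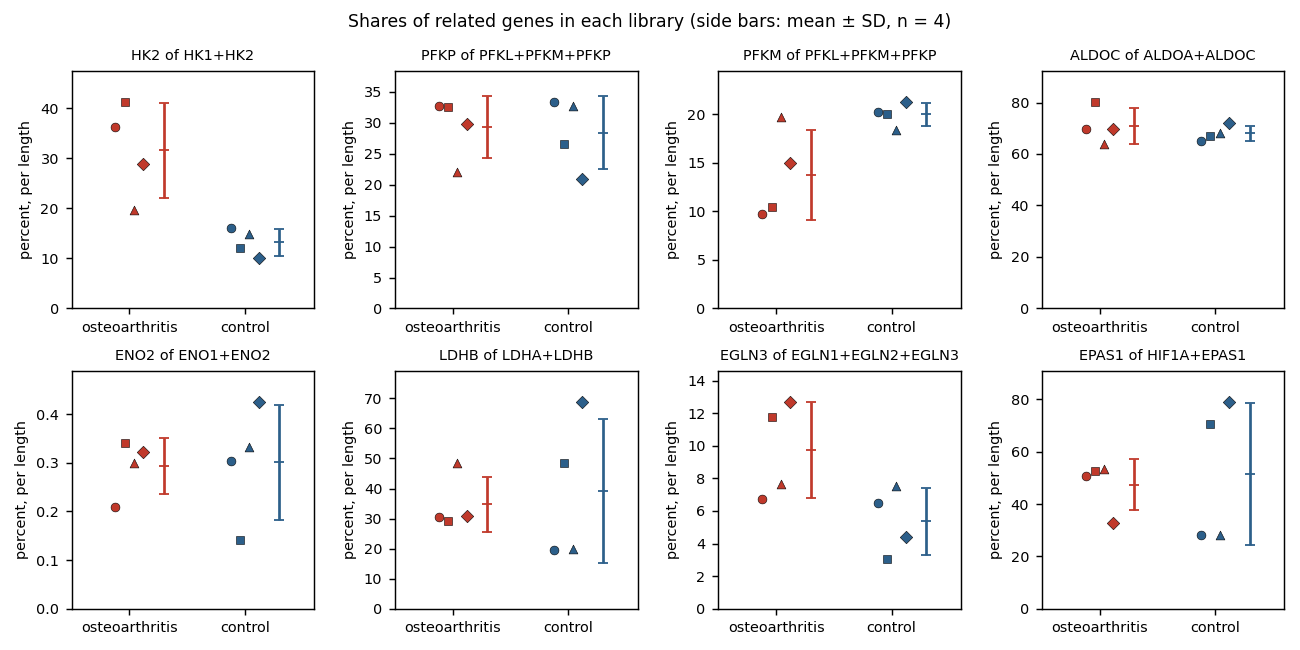
Share of each named gene in the summed per-length level of its family (percent) in each library, with osteoarthritis left of control and side bars for the mean ± SD (n = 4 each). HK2 is the share whose groups do not overlap, at 19.7% to 41.3% in osteoarthritis and 10.1% to 16.0% in controls, while LDHB and EPAS1 split the controls into 1 and 3 against 2 and 4.

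Levels per length differed widely among the enzymes. GAPDH was the most abundant member per length, at 1129 ± 655 CPM per kilobase in osteoarthritis and 940.4 ± 436 in controls (SD, n = 4 each), followed by ENO1 at 323 ± 186 and 301 ± 163, and PKM at 159 ± 68.2 and 154 ± 87.9. Of the other genes of glycolysis and lactate, GPI, TPI1, LDHA and PGAM1 had means between 46.1 and 89.5 CPM per kilobase in osteoarthritis and between 52.8 and 77.2 in controls. ENO2, the neuronal enolase, made up 0.293% ± 0.0576 of both enolases in osteoarthritis and 0.301% ± 0.118 in controls (SD, n = 4 each). GAPDH, ENO1 and PKM together supplied 69.99% to 82.3% of the summed CPM of the 15 enzymes in osteoarthritis and 68.6% to 77.4% in controls.

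GAPDH, often used as a reference gene, was at 1675, 1984, 384 and 910.2 CPM in osteoarthritis replicates 1 to 4, against 1383, 956, 1371 and 389.6 CPM in control replicates 1 to 4. It varied 5.17-fold within osteoarthritis and 3.55-fold within controls, more than the difference between the group means (log2 0.27 ± 0.57, edgeR adjusted p = 0.861). ENO1, the enolase of most tissues, varied 5.11-fold and 3.88-fold in the same way (log2 0.10 ± 0.57). PKM, which makes pyruvate, was at 550.0, 820.5, 274 and 509 CPM in osteoarthritis, against 774, 336, 783 and 196 CPM in controls (log2 0.04 ± 0.50). The fold changes of GAPDH, ENO1 and PKM were below 0, at -0.19, -0.46 and -0.56, against controls 1 and 3 alone. Many mammalian genomes carry processed copies of GAPDH, and estimated counts split ambiguous reads between such copies.

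Further enzymes overlapped between groups. PGK1, an ATP-producing kinase and a classical HIF target, was at 0.18 ± 0.44, GPI, the isomerase after hexokinase, at 0.19 ± 0.34, TPI1, the triose phosphate isomerase, at -0.07 ± 0.40 and PGAM1, the phosphoglycerate mutase, at -0.63 ± 0.45 on the log2 fold change scale, with edgeR adjusted p from 0.546 to 0.959. TPI1 was at 0.51 under library-size scaling alone. ENO2 was at -0.07 ± 0.53, and ALDOC, the brain-type aldolase, at 0.10 ± 0.37.

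ALDOA, the aldolase of muscle and most other tissues, was low for such a gene, at 1.65 ± 0.157 CPM per kilobase in osteoarthritis and 1.88 ± 0.784 in controls (SD, n = 4 each), below ALDOC at 4.28 ± 1.48 and 3.95 ± 1.46. The table's model is ENSSSCG00000032556, and RefSeq places ALDOA at chromosome 3, 18246036 to 18260167, with another protein-coding model, LOC110260082, across its start. That neighbour was not analysed here, so the ALDOA level is uncertain (log2 -0.13 ± 0.31, edgeR adjusted p = 0.885; 0.44 under library-size scaling alone).

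The glycolytic enzymes moved together from library to library within each group. Osteoarthritis 3 was the lowest of its group for 14 of the 15 enzymes, where it was the lowest for 33.8% of all genes tested, and osteoarthritis 2 was the highest for 10, where it was the highest for 32.5% of all genes. Control 4 was the lowest control for 12 of the 15 (25.8% of all genes), and controls 1 and 3 were both above controls 2 and 4 for 13 of the 15 (30.6% of all genes). Other members shared part of this pattern. Of the 11 HIF targets outside glycolysis, osteoarthritis 3 was the lowest of its group for 7, and control 4 for 2. Controls 1 and 3 were both above controls 2 and 4 for 7 of these 11 and both below for 2. Over all 40 models they were both above for 28 and both below for 5. Summed over the 15, the level was 3649, 4471, 1184 and 2432 CPM in osteoarthritis replicates 1 to 4, against 3683, 2206, 3745 and 1134 CPM in control replicates 1 to 4. At this scaling the groups thus spanned nearly the same range. Control 2 had a TMM factor of 0.424, against 0.873 to 1.04 in the other controls. The order of controls 2 and 4 rests on that factor, and for the summed level it turns by library size alone.

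Marker lists also differed between these libraries, in directions that did not all hold in both groups. Erythroid markers (5 of 7 in the table, led by HBB) summed to 29.5, 16.2, 239 and 21.8 CPM in osteoarthritis, against 1.22, 81.7, 3.61 and 1139 CPM in controls. At TMM scaling, the library with the lowest summed enzymes was the highest in erythroid markers in both groups. By library size alone this did not hold in controls, where control 2 had the lowest summed enzymes. Osteoclast markers (6 of 7 in the table, led by MMP9 and ACP5) summed to 2786, 2763, 2162 and 1311 CPM in osteoarthritis, against 11.2, 1433, 19.1 and 1882 CPM in controls. The 2 libraries highest in glycolytic enzymes were the highest in osteoclast markers in osteoarthritis, and the lowest in controls. Summed chondrocyte markers were lowest within osteoarthritis in replicate 3, at 18325 CPM, and highest within controls in replicate 4, at 15639 CPM. COL2A1 made up most of that sum, at 11919 CPM in control 4. ACAN was at 2912, 343, 3116 and 1430 CPM in control replicates 1 to 4. ACAN, HAPLN1 and SOX9 were not highest in control 4 among controls, while the other listed markers were. HAPLN1 and SOX9 were named after their values were seen. Replicate 3 of osteoarthritis and, at TMM scaling, replicate 4 of controls were the lowest of their groups in summed enzymes. The part of these cell types in the enzyme levels was not tested.

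**Figure D5:**
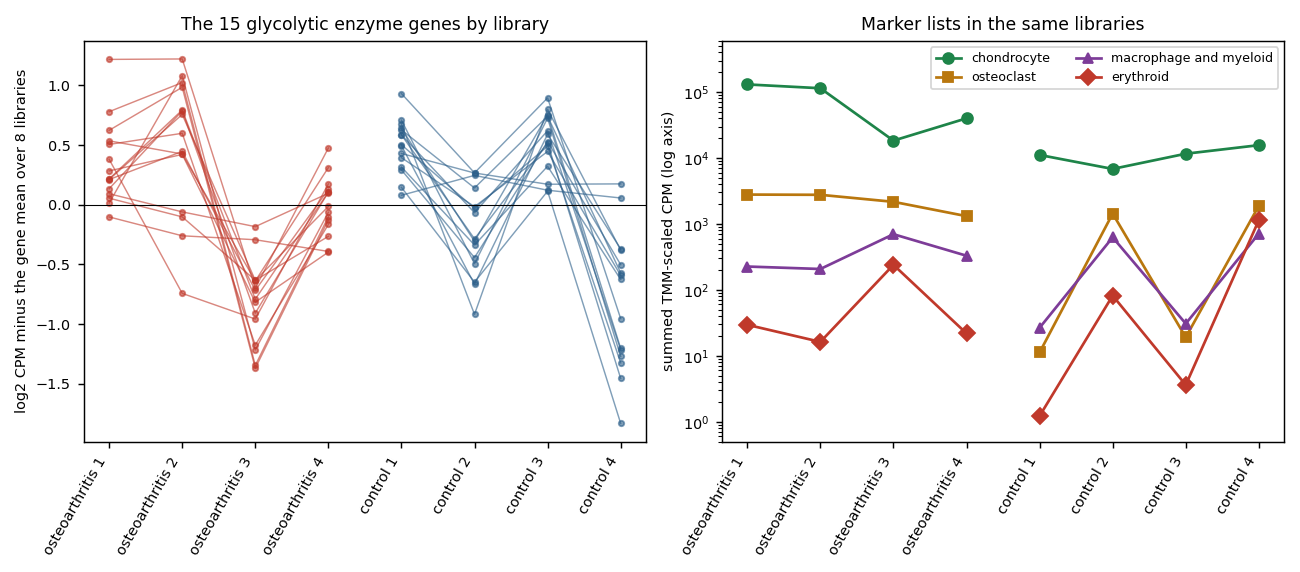
Left, log2 CPM of each of the 15 glycolytic enzyme genes minus its mean over the 8 libraries, with lines joining values of the same gene; right, summed TMM-scaled CPM (log axis) of marker lists in the same libraries. Osteoarthritis 3 and control 4 dip for most enzymes and peak for erythroid markers, and controls 1 and 3 are high for the enzymes and low for osteoclast and myeloid markers.

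At the fate of pyruvate, LDHA, the lactate dehydrogenase subunit that favours lactate, was at 119.8, 124, 79.0 and 167 CPM in osteoarthritis replicates 1 to 4, against 207, 78.4, 193 and 31.6 CPM in control replicates 1 to 4. It spanned 2.12-fold within osteoarthritis and 6.57-fold within controls, and the means differed little (log2 -0.06 ± 0.53, edgeR adjusted p = 0.974; 1.21 against controls 2 and 4 alone). SLC16A3, the lactate exporter of glycolytic cells and a HIF target, was likewise higher in controls 1 and 3 than in controls 2 and 4, with 53.9, 57.9, 9.81 and 22.9 CPM in osteoarthritis, against 63.8, 13.5, 72.8 and 9.95 CPM in controls (log2 -0.15 ± 0.74, edgeR adjusted p = 0.946; 1.66 against controls 2 and 4 alone). Within osteoarthritis SLC16A3 spanned 5.90-fold and was highest in replicate 2, whereas LDHA was highest in replicate 4. Under library-size scaling alone LDHA was at 0.52 and SLC16A3 at 0.24. PDK1, a kinase that inhibits pyruvate dehydrogenase, was at 0.41 ± 0.24 (edgeR adjusted p = 0.465).

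LDHB, the subunit that favours pyruvate, has 2 models. The model on chromosome 5 (ENSSSCG00000000576, 51810932 to 51831218) was matched to LDHB through its Entrez identifier, and was at 36.0, 36.0, 51.1 and 51.8 CPM in osteoarthritis replicates 1 to 4, against 33.1, 49.3, 31.6 and 47.8 CPM in control replicates 1 to 4 (log2 0.11 ± 0.23, edgeR adjusted p = 0.856). The model that the deposited table itself names LDHB lies on chromosome 2 (ENSSSCG00000032557, 12988754 to 12990033), where RefSeq also annotates a pseudogene, LOC407246. It had 21, 0, 1 and 0 counts in osteoarthritis replicates 1 to 4, against 29, 22, 22 and 26 counts in control replicates 1 to 4, with an edgeR adjusted p of 0.325. Its counts were below those of the chromosome 5 model in every library, and ambiguous reads may be split between the models. With both summed, LDHB made up 34.8% ± 9.19 of lactate dehydrogenase per length in osteoarthritis and 39.2% ± 24 in controls (SD, n = 4 each; exact two-sided permutation p = 0.83). In controls the share was 19.5% and 19.8% in replicates 1 and 3, and 48.5% and 68.8% in replicates 2 and 4.

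Further genes of the pathway, taken from lists beyond the 40, held no edgeR call, while other tools called some. Of 38 further HIF targets tested, 0 passed over all genes by edgeR, and the median was 0.26. With p unadjusted, 9 lay higher and 1 lower under 0.05 (background 7.52% and 7.65%). DESeq2 called 4 higher and 1 lower (background 2.50% and 2.99%). Sample-weighted limma-voom called 10 and 2 (background 12.2% and 8.40%), and unweighted limma-voom called 0. VLDLR, a lipoprotein receptor that HIF induces, came closest by edgeR, at 13.3 ± 2.30 CPM in osteoarthritis and 6.36 ± 0.648 CPM in controls (SD, n = 4 each) without overlap (log2 1.06 ± 0.20, edgeR adjusted p = 0.0525). AK4, a mitochondrial adenylate kinase, was at 184, 141, 56.8 and 116 CPM in osteoarthritis replicates 1 to 4, against 55.3, 57.3, 49.4 and 28.6 CPM in control replicates 1 to 4 (log2 1.39 ± 0.37, edgeR adjusted p = 0.132). CCNG2, an atypical cyclin, was at 1.11 ± 0.29 with the groups apart, and JMJD6, a nuclear oxygenase, at -1.08 ± 0.28 with the groups apart in the other direction, with edgeR adjusted p of 0.13 and 0.123. The DESeq2 adjusted p was 0.000404 for VLDLR, 0.0148 for AK4, 0.0238 for CCNG2 and 0.0116 for JMJD6.

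Of 17 partners and modifiers of HIF, 0 passed by edgeR, with a median of 0.09. With p unadjusted, 2 lay higher and 1 lower under 0.05 (background 7.52% and 7.65%). SIAH1 and SIAH2, ubiquitin ligases that degrade prolyl hydroxylases, were at 0.53 ± 0.17 and 0.88 ± 0.31 on the log2 scale, and RBX1 and ELOB, parts of the VHL ligase complex, at -0.57 ± 0.21 and -0.56 ± 0.25, with edgeR adjusted p from 0.207 to 0.337. DESeq2 and limma-voom called 0 of the 17, and limma-voom with sample weights 3 higher and 2 lower (background 12.2% and 8.40%). Among them were SIAH1 higher and RBX1 and ELOB lower (adjusted p from 0.0105 to 0.0497). RBX1 and ELOB were just above 0, at 0.07 and 0.01, under library-size scaling alone.

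Of 31 further genes of glycolysis and pyruvate use, 0 passed by edgeR, with a median of 0.20. With p unadjusted, 1 lay higher and 1 lower under 0.05 (background 7.52% and 7.65%). SLC16A1, a carrier that moves lactate and pyruvate either way, was at 23.7 ± 1.06 CPM in osteoarthritis and 12.6 ± 5.24 CPM in controls (SD, n = 4 each) without overlap (log2 0.90 ± 0.30, edgeR adjusted p = 0.21). PGAM2, the muscle phosphoglycerate mutase, was at -1.08 ± 0.44 (edgeR adjusted p = 0.291), ADPGK, a glucokinase that uses ADP, at 0.49 ± 0.22, and PYGL, a glycogen phosphorylase, at 0.34 ± 0.16. DESeq2 and limma-voom called 0 of the 31, and limma-voom with sample weights 4 higher and 3 lower (background 12.2% and 8.40%). PGAM2 was among the lower (adjusted p = 0.0116). Of 10 genes of gluconeogenesis and the pentose phosphate pathway, 0 passed by edgeR, with a median of -0.02. With p unadjusted, 2 lay higher and 1 lower under 0.05, beside the same background. PGLS, a pentose phosphate lactonase, was at 1.12 ± 0.38, G6PC3, a glucose phosphatase, at 0.69 ± 0.26, TALDO1, a transaldolase, at -0.48 ± 0.21 and PGD, a dehydrogenase of that pathway, at -0.42 ± 0.24, with edgeR adjusted p from 0.221 to 0.435. DESeq2 and limma-voom called 0 of the 10. With sample weights limma-voom called these 4, PGLS and G6PC3 higher and TALDO1 and PGD lower (adjusted p from 0.0217 to 0.0493), beside its background of 12.2% and 8.40%. Under library-size scaling alone TALDO1 was at 0.14 and PGD at 0.18.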

How the data were processed

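The authors' deposited table gives estimated counts, TPM, log2 TPM and effective lengths per library for 18898 genes. Per the submitters' processing notes, the software included Salmon 1.1.0, STAR 2.7.9a, DESeq2 1.26.0, StringTie 2.1.0, MultiQC 1.13 and Trim Galore 0.6.7, and the build was Sscrofa11.1. The role of each, the strand setting and the filter on rows are not given in the sources used here. All deposited counts were whole numbers, the log2 values were not used, and lengths, in bases, served as offsets and for levels per kilobase. Of the 40 names, 32 matched the table's symbols, and EGLN1, EGLN2, VHL, SLC2A3, PGAM1, ENO1 and PKM were added by gene or Entrez identifier.

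Genes that passed filterByExpr were normalised by TMM. Group was the only term of a robust edgeR 4.0.16 quasi-likelihood fit in R 4.3.3, with Benjamini-Hochberg adjustment over all 16020 genes. An SE is the size of the log2 fold change over the root of its F statistic. Alternatives used limma 3.58.1 and DESeq2 1.42.0. The fit was also run on simulated counts, drawn independently for each gene. Genes did not move together between those simulated libraries, so that run does not check the p-values given here. Shares were compared by exact permutation over 70 assignments (SciPy 1.17.1) and adjusted over 8. The members, lists and tests were chosen with earlier results of these data known. All members are named, and of each further list the 4 genes of smallest p, with up to 3 markers per cell type by highest mean CPM. Coordinates are RefSeq's for Sscrofa11.1.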

Additional observations from a re-analysis of the deposited data

Results flagged for a closer look

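Among 100 groups of 4 libraries looked at, 5 held a library whose gap to the nearest other exceeded the 95% limit of Dixon's test, where chance gives about 1 in 20. KDM3A was at 40.7 CPM in osteoarthritis 3, against 33.2 to 33.8 CPM in the other osteoarthritis libraries. SLC2A3 was at 29.9 CPM in control 2, against 45.3 to 46.7 CPM in the other controls. The LDHB model on chromosome 2 was at 1.29 CPM in osteoarthritis 1, against 0 to 0.0296 CPM in the others. LDHB made up 48.5% of LDHA and LDHB in osteoarthritis 3, against 29.3% to 30.7% in the others. EPAS1 made up 32.9% of HIF1A and EPAS1 in osteoarthritis 4, against 50.7% to 53.5% in the others.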

How the results depend on the processing

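Over all genes tested 99 passed by edgeR, 36 higher and 63 lower in osteoarthritis. Under library-size scaling alone 214 passed, 186 higher and 28 lower, 59 with a stricter filter (mean count 50), 3301 under sample-weighted limma-voom and 844 by DESeq2. With controls 1 and 3 summed 31 passed, and 1241 with controls 2 and 4 left out. With 1 library left out 14 to 152 passed. The members higher numbered 1, against 2 with library size only, 0 with the stricter filter, 4 under sample-weighted limma-voom (beside 3 lower), 3 by DESeq2, 0 with controls 1 and 3 summed, 3 without controls 2 and 4 (with 1 lower), and 0 without osteoarthritis 3 and control 4, a choice made after seeing the data. With 1 library left out there were 0 to 1 higher and 0 to 1 lower, the lower being the LDHB model on chromosome 2 without osteoarthritis 1. Samples sharing a replicate number did not deviate together (correlations from -0.34 to -0.02), and with the number as a replicate block 1 gene and 0 members passed (ADM at 2.31, edgeR adjusted p = 0.206).

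Log2 fold changes whose sign turned were small in most settings. With library size only, where the median of all genes was 0.65 against 0.0049, they were VHL 0.44, CA9 0.32, DDIT4 0.061, PFKFB4 0.25, HK1 0.064, PFKL 0.41, PFKM 0.10, PFKP 0.52, ALDOA 0.44, TPI1 0.51, ENO2 0.39, LDHA 0.52, SLC16A3 0.24, ELOB 0.011, RBX1 0.075, PGD 0.18 and TALDO1 0.14. With upper quartile scaling PKM was -0.0051. By limma-voom they were CA9 0.082, TPI1 0.041, LDHA 0.22 and SLC16A3 0.028, and with sample weights NDRG1 -0.16, PFKFB3 -0.011, GPI -0.12, ALDOC -0.26, GAPDH -0.16, PGK1 -0.14, ENO1 -0.40 and PKM -0.40. With length offsets they were CA9 0.17, PFKL 0.023 and ENO2 0.019, and with the replicate block CA9 0.18, TPI1 0.038, LDHA 0.20 and SLC16A3 0.15. With controls 1 and 3 summed they were CA9 0.20, PFKP 0.091, ALDOA 0.035, TPI1 0.12, ENO2 0.12, LDHA 0.23 and SLC16A3 0.20. Without controls 1 and 3 they were EPAS1 -0.32, CA9 1.52, DDIT4 0.27, PFKFB4 0.19, HK1 0.0052, PFKP 0.41, ALDOA 0.53, TPI1 0.66, PGAM1 0.10, ENO2 0.77, LDHA 1.21, the LDHB model on chromosome 5 -0.11, SLC16A3 1.66 and PGD 0.063. Without controls 2 and 4 they were NDRG1 -0.28, P4HA1 -0.13, PFKFB3 -0.036, GPI -0.19, ALDOC -0.30, GAPDH -0.19, PGK1 -0.36, ENO1 -0.46 and PKM -0.56. Without osteoarthritis 3 and control 4 they were PFKP 0.047, ENO2 0.018 and PKM -0.028. The cause was not tested.

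With 1 library left out, log2 fold changes ran from -0.48 to 0.22 for CA9, -0.0021 to 0.35 for BNIP3L, -0.0081 to 0.46 for NDRG1, -0.079 to 0.36 for GPI, -0.36 to 0.00066 for PFKL, -0.24 to 0.22 for PFKP, -0.32 to 0.067 for ALDOA, -0.19 to 0.31 for ALDOC, -0.35 to 0.13 for TPI1, -0.049 to 0.55 for GAPDH, -0.12 to 0.42 for PGK1, -0.24 to 0.38 for ENO1, -0.55 to 0.18 for ENO2, -0.25 to 0.29 for PKM, -0.40 to 0.27 for LDHA and -0.51 to 0.28 for SLC16A3. Differences in share ran from -1.65 to 3.28 percentage points for PFKP, -0.227 to 5.29 for ALDOC, -0.0612 to 0.0332 for ENO2, -10.9 to 5.50 for LDHB and -11.9 to 5.15 for EPAS1. With 4 libraries a group, a p that misses the threshold does not show that levels are equal, and low genes such as ANKRD37 and the LDHB model on chromosome 2 rest on few counts.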
